A study of Homo sapiens with 48 samples.

Results

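Interferon-stimulated genes were examined in BEAS-2B cells, a line of human bronchial epithelial cells immortalised with a viral hybrid, on Affymetrix U133 Plus 2.0 arrays. Of 41 listed genes, 40 had a probe set annotated to their symbol alone, out of 19775 such genes on the array. STAT2 had none, so its expression was not analysed here. Each gene stood by the probe set with the highest mean over all 48 arrays, and all 40 members passed the filter on low signal, as did 14409 genes in all. The groups were GS-5759 at 10 nM, Ind/GSK (indacaterol together with GSK 256066, both at 10 nM) and vehicle, each for 1, 2, 6 and 18 h, with 4 arrays in each of the 12 groups. Indacaterol is an agonist of the β2-adrenoceptor with a long action, GSK 256066 an inhibitor of phosphodiesterase 4, and GS-5759 a single molecule with both activities. All cells had been grown in supplemented keratinocyte serum-free medium and moved to the medium alone a day before treatment, and no group received an interferon. The labels do not say whether replicates came from separate cultures, so every p-value measures only how far these samples spread, which may be technical.

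Interferons bind cell surface receptors whose JAK kinases phosphorylate STAT proteins. STAT complexes that hold IRF9 bind interferon-stimulated response elements, others bind gamma-activated sites, and the genes so induced restrict viral replication. Epithelial cells also keep many of these genes on at a low level without infection. Drugs that raise cyclic AMP, such as β2-adrenoceptor agonists and phosphodiesterase 4 inhibitors, act on genes through protein kinase A and the factor CREB, which binds cAMP response elements.

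Promoters are shown for members on which the results below turn, to set the response elements beside the changes. The sequences come from RefSeq (GRCh38.p14) and run from 140 bases before to 30 after the gene's start, 5′ to 3′ on the gene's strand. Capitals mark the interferon-stimulated response element core (GAAA and GAAA with any 2 letters between) on either strand, or in IRF1 the gamma-activated site TTCNNNGAA. ISG20 (chr15:88638876-88639045, plus strand) and IRF1 (chr5:132490744-132490913, minus strand) come first, followed by GBP1 (chr1:89065179-89065348, minus), IFI44L (chr1:78620308-78620477, plus), IFIT1 (chr10:89392483-89392652, plus), MX1 (chr21:41420418-41420587, plus) and SAMD9 (chr7:93117950-93118119, minus).
ISG20: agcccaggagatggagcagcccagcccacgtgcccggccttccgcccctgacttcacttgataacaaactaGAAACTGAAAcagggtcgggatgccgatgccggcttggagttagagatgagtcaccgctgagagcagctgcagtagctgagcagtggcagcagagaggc
IRF1: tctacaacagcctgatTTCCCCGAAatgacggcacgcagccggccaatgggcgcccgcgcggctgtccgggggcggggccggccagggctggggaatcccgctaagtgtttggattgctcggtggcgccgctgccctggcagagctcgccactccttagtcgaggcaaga
GBP1: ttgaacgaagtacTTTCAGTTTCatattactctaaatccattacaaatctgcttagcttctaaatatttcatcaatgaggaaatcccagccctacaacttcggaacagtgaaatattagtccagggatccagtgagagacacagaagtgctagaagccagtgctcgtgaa
IFI44L: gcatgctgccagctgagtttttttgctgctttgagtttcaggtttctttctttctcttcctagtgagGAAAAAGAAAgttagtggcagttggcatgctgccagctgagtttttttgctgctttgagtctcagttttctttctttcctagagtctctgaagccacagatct
IFIT1: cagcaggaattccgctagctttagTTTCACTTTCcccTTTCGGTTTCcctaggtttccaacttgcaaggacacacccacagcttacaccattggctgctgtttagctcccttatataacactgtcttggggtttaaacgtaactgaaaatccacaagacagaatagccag
MX1: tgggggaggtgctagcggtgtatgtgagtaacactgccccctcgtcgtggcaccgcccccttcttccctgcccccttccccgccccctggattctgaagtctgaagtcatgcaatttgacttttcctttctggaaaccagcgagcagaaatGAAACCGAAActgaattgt
SAMD9: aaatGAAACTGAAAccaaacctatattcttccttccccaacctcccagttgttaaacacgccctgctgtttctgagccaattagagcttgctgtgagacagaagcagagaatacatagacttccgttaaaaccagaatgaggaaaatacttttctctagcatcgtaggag

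The response element core lay within 250 bases before to 50 after the start in 21 of the 34 listed genes with a promoter window, STAT2 included (61.8%), against 3.65% of 27303 windows of that length. The gamma-activated site lay in 11 (32.4%), against 7.88% of all windows. The full cAMP response element TGACGTCA lay in 0 of the 34, against 1.98% of all windows. Its shorter form TGACG lay in 7 (20.6%: IFIT1, ISG15, ISG20, IRF1, PARP9, XAF1 and PSMB9), against 25% of all windows, and every full element also holds this form. Both strands were searched. These are matches of letters and not shown to be bound. IFIT2, IRF7, MX2, OAS2, OASL, TRIM22 and USP18 have no window here.

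Several members lie beside each other in the genome. MX2 and MX1 are neighbours on chromosome 21, as are IFI44L and IFI44 on chromosome 1, CMPK2 and RSAD2 on chromosome 2, HERC6 and HERC5 on chromosome 4 and SAMD9 and SAMD9L on chromosome 7. The OAS1, OAS3 and OAS2 genes adjoin on chromosome 12. IFIT2, IFIT3, IFIT1 and IFIT5 form a cluster on chromosome 10.

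The arrays were alike in scale, with medians of log2(signal + 16) between 7 and 7.17, and the arrays numbered replicate 3 stood apart from the rest. Of 10 airway epithelial markers 8 were measured, and 7 were above the filter with KRT19 below it. The summed mean signal of the 8 was 369000 in the 12 arrays of number 3, against 16000, 13700 and 13100 in numbers 1, 2 and 4. All 7 fibroblast markers were above the filter as well, with sums of 10700, 12500, 9060 and 13200 in numbers 1 to 4. Of the leukocyte markers measured, CD14, ITGAM, LYZ and CD74 were above the filter, and PTPRC and CD3D below it. Of those listed for plasmacytoid dendritic cells, TCF4 was above it, and CLEC4C, LILRA4 and IL3RA below. Of the endothelial markers, PECAM1 and VWF were above it, and CDH5 and KDR below. The part of these markers in the results was not tested, and calls below are also given without number 3, for single genes or as counts. In bulk RNA, fewer cells of a type and less RNA per cell cannot be told apart.

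These genes varied more between replicate numbers than between treatments. Replicate number held between 13.9% and 89.6% of a member's sum of squares over the 48 arrays (median 57%), against a median of 22.4% and quartiles of 9.6% and 47.4% over all genes tested. In 39 of the 40 members that share was above the median of all genes, and in 30 it was above the upper quartile. Time held a median of 9% in members and 15.9% in all genes, treatment 1.8% and 5.5%, and treatment by time 5.3% and 5.6%. Replicate number held the largest of these shares in 35 members of 40, against 35.2% of all genes. Leaving out number 3 gave a member median of 48%, and leaving out number 1, 2 or 4 gave 60.9%, 54.2% or 50%. 

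**Figure D1:**
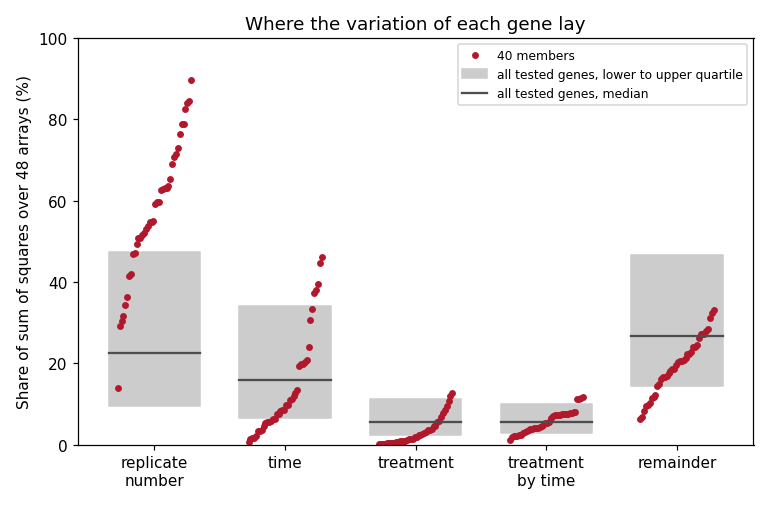
Share (%) of each gene's sum of squares over 48 arrays held by replicate number, time, treatment, treatment by time and the remainder. Red points are the 40 members in rising order, grey bars run from the lower to the upper quartile of all tested genes and the grey line is their median. The members' median for replicate number is 57%, against 22.4% for all genes.

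The order of the replicate numbers was shared by most members. The mean over 12 arrays was highest in number 2 for 30 of the 40, against 18.6% of all genes. It was lowest in number 3 for 21 and in number 4 for 19, against 38.5% and 24.4% of all genes. In 28 members numbers 3 and 4 were both below numbers 1 and 2, against 14.1% of all genes. MX2, a GTPase of the nuclear pore that restricts retroviruses, spread most, with mean log2 values of 8.95, 9.59, 6.93 and 8.51 in numbers 1 to 4, a 6.31-fold range. OAS2, which makes the oligoadenylates that activate RNase L, had 9.03, 9.51, 7.88 and 8.50. ISG20, IFI44L, IFITM1 and PSMB9 instead were highest in number 3, as were 35.1% of all genes.

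UBE2L6, the enzyme that carries the ubiquitin-like protein ISG15 to its ligase, had the largest share, with 89.6% of its variation between replicate numbers. Its signals with vehicle at 6 h were 3590, 4280, 2790 and 3670 in numbers 1 to 4, and the other 11 groups also had their lowest array in number 3. IFI35, a partner of NMI, followed with 84.5%, and its signals with vehicle at 6 h were 2100, 2760, 1150 and 2090. HERC6, of the HERC ubiquitin ligase family, had 83.9%, with 411, 650, 294 and 415 in the same arrays. In all 3 genes number 2 was highest and number 3 lowest in that group. The smallest shares belonged to GBP1 (13.9%), a guanylate-binding GTPase that attacks intracellular pathogens, SAMD9 (29.2%), which restricts poxviruses, and EPSTI1 (30.3%).

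ISG15 itself, a ubiquitin-like modifier, showed the common order. At 6 h its signals in numbers 1 to 4 were 8230, 7350, 3820 and 6450 with GS-5759, 7040, 9450, 3870 and 4080 with Ind/GSK, and 7400, 9280, 4800 and 6980 with vehicle. The 3 groups overlapped, with number 3 lowest in each. IRF9, the part of the STAT complex that recognises DNA, had 2390, 2290, 1550 and 1780 with GS-5759, 2050, 2610, 1490 and 1280 with Ind/GSK, and 2240, 2710, 1560 and 2030 with vehicle at that time. OAS1, another oligoadenylate synthetase, had 790, 775, 274 and 604 with GS-5759, 527, 1140, 273 and 352 with Ind/GSK, and 771, 1040, 447 and 648 with vehicle. In both genes the groups overlapped at 6 h, although IRF9 with Ind/GSK was below vehicle in each of the 4 numbers. Neither gene was called at that time in either fit described below.

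**Figure D2:**
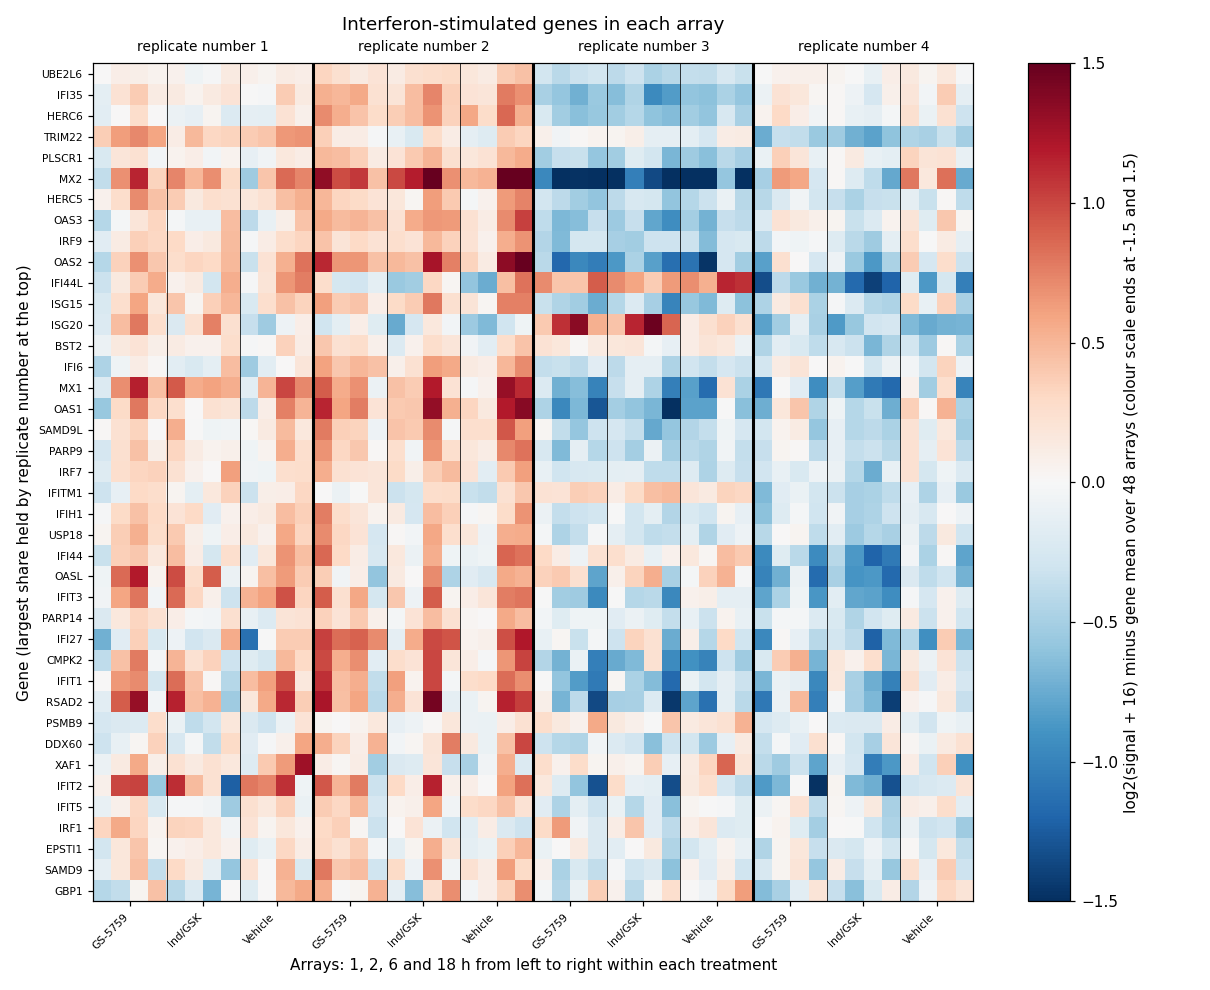
Colour gives log2(signal + 16) of each of the 40 members (rows) in each of the 48 arrays (columns) minus the member's mean over all arrays. Arrays are grouped by replicate number, then by treatment, with 1, 2, 6 and 18 h from left to right. Most rows are red in number 2 and blue in numbers 3 or 4, and ISG20 and IFI44L are red in number 3.

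Single arrays also moved as a body. After group and replicate number means were taken out, the array of GS-5759 at 1 h numbered 1 lay below its fitted value in 40 of 40 members, and number 2 of the same group lay above it in 40. Number 3 of that group was above in 39 and number 4 in 2. Of all genes 39.1%, 55.9%, 54.7% and 50.8% were above the fit in those 4 arrays. Ind/GSK at 6 h had 39 members above the fit in number 2 and 4 in number 4, with 44.8% and 57.1% of all genes. Vehicle at 1 h had 38 above in number 4 and 2 in number 2, with 45.6% and 50% of all genes. A gene's deviations from the fit balance out within each group, so the 4 counts of a group depend on each other. Only some of the 12 groups are given here. The cause of these shifts was not tested.

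Because replicate numbers differed this much, each comparison was fitted with limma both on group means alone and with replicate number as an added term, called the replicate block here. Changes are log2 differences of log2(signal + 16), which understate the change of dim genes. A gene is called where its Benjamini-Hochberg adjusted p over all tested genes is under 0.05. Without the block, limma called 0 of 40 members in all 8 comparisons with vehicle. Of all genes it called 0.271%, 2.43%, 1.58% and 0% with GS-5759 at 1, 2, 6 and 18 h, and 1.83%, 3.49%, 3.73% and 0.0486% with Ind/GSK. At an unadjusted p under 0.05 there were 0, 1, 1 and 2 members with GS-5759, beside 4.17%, 12.1%, 12.4% and 3.21% of all genes. With Ind/GSK there were 0, 1, 4 and 4, beside 18.4%, 13.6%, 14.6% and 5.89%. With the block the member counts were 0, 2, 1 and 0 with GS-5759, beside 1.35%, 9.33%, 10.6% and 0.146% of all genes. With Ind/GSK they were 0, 3, 12 and 5, beside 18.1%, 11.9%, 17.8% and 1.88% of all genes. Verbs of change below refer to the fit with the block. ISG20 and the other genes whose arrays are given in full beyond ISG15, MX1, IFIT1, OAS1, IRF1, IRF9 and the 6 with extreme shares above were chosen after their values were seen.

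**Figure D3:**
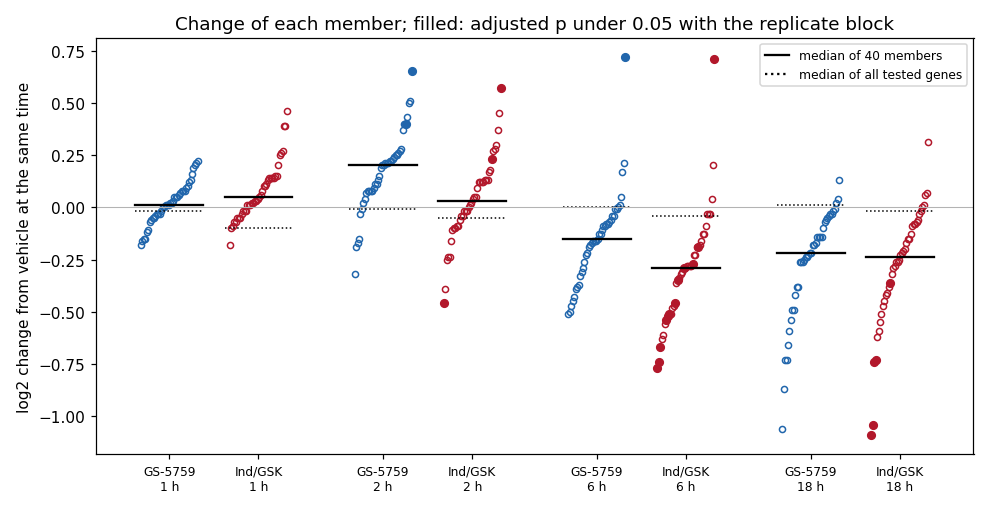
log2 change from vehicle at the same time (vertical axis) for the 40 members, as points in rising order, with GS-5759 in blue and Ind/GSK in red at 1, 2, 6 and 18 h. Filled points have an adjusted p under 0.05 with the replicate block, solid lines are member medians and dotted lines medians of all genes. At 6 h ISG20 stands above at 0.72 and 0.71, while the member medians are -0.15 and -0.29.

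ISG20, an exonuclease that degrades RNA, rose with both treatments. At 2 h its signals in numbers 1 to 4 were 549, 353, 854 and 269 with GS-5759, 464, 328, 883 and 260 with Ind/GSK, and 266, 243, 466 and 226 with vehicle. At 6 h they were 691, 422, 1030 and 355 with GS-5759, 673, 441, 1120 and 318 with Ind/GSK, and 370, 315, 503 and 233 with vehicle. The groups overlapped as wholes, because number 3 was high and number 4 low in each, but within every number the treated array was above its vehicle array. With the block the change was 0.65 ± 0.13 (SE, n = 4 arrays a group) with GS-5759 at 2 h (limma adjusted p = 0.000363, 0.543 without the block) and 0.72 ± 0.13 at 6 h (0.000125, 0.46 without). With Ind/GSK it was 0.57 ± 0.13 at 2 h (limma adjusted p = 0.00168, 0.599 without the block) and 0.71 ± 0.13 at 6 h (7.9e-05, 0.414 without).

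All 4 of these ISG20 calls were kept in each fit without 1 replicate number, number 3 included, and in 5 other settings with the block. The gene's other probe set gave 0.78 and 0.86 with GS-5759 and 0.67 and 0.81 with Ind/GSK at 2 and 6 h, all called. Within numbers, the difference at 6 h was 0.87, 0.41, 1.02 and 0.58 with GS-5759 and 0.84, 0.47, 1.13 and 0.43 with Ind/GSK. At 1 h the change was 0.13 and 0.01, and at 18 h 0.13 and 0.31 with GS-5759 and Ind/GSK, none of them called. The mean response of both treatments was lower at 18 h than at 6 h by a log2 of -0.49 ± 0.15 (limma with the block, adjusted p = 0.0488), a call lost in each of the 4 fits without 1 number, where 0 members were called.

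**Figure D4:**
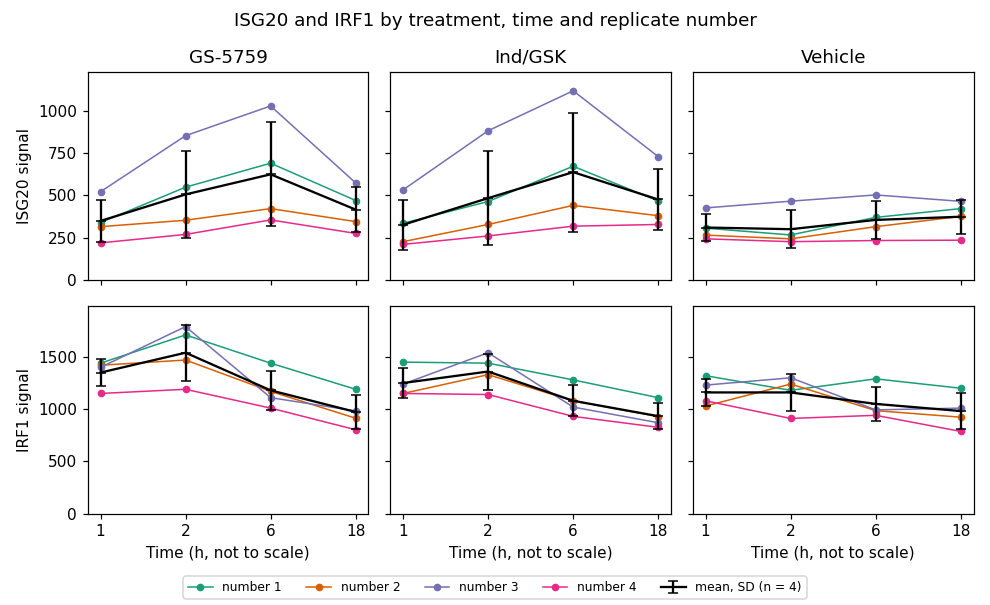
Signal of ISG20 (top) and IRF1 (bottom) at 1, 2, 6 and 18 h with GS-5759, Ind/GSK and vehicle. Coloured lines join arrays of 1 replicate number, and black marks are the mean and SD of 4 arrays. ISG20 peaks at 6 h with both treatments (means 625 and 638, against 355 with vehicle), and IRF1 at 2 h (1540 and 1360, against 1160).

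IRF1, a transcription factor known to be induced by interferon gamma, rose at 2 h. Its signals in numbers 1 to 4 were 1710, 1470, 1790 and 1190 with GS-5759, 1440, 1330, 1540 and 1140 with Ind/GSK, and 1180, 1240, 1300 and 911 with vehicle. Number 4 was lowest in all 3 groups, so the groups overlapped, and each treated array was above the vehicle array of its number. The change was 0.40 ± 0.07 with GS-5759 (limma with the block, adjusted p = 0.000204, 0.155 without the block). It was 0.23 ± 0.07 with Ind/GSK (0.0331 with the block, 0.52 without). The GS-5759 call was kept in each of the 4 fits without 1 number and the 5 other settings with the block, whereas the Ind/GSK call was lost in each of those 4 fits. A second IRF1 probe set gave 0.37 and 0.32, both called. At 1 h the changes were 0.22 and 0.10, at 6 h 0.17 and 0.04, and at 18 h -0.01 and -0.06 with GS-5759 and Ind/GSK.

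As a whole the members had median changes at 2 h of 0.20 with GS-5759 and 0.03 with Ind/GSK, against -0.01 and -0.05 for all genes. With GS-5759, 17 of 40 members were higher than vehicle in every replicate number, against 15.1% of all genes, and 1 was lower, against 17.3%. With Ind/GSK those counts were 4 and 4, against 8.56% and 22.2%. At 1 h they were 1 and 0 with GS-5759 (7.16% and 12.3% of all genes) and 4 and 2 with Ind/GSK (4.38% and 33.4%). GBP1 went the other way at 2 h, with signals of 528, 682, 502 and 487 with GS-5759, 595, 435, 513 and 439 with Ind/GSK, and 692, 738, 649 and 653 with vehicle. It fell by 0.46 ± 0.14 with Ind/GSK (limma with the block, adjusted p = 0.0297), and all 4 Ind/GSK arrays were below all 4 vehicle arrays. The call was lost without number 2, 3 or 4, and the GS-5759 change of -0.32 was not called.

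At 6 h most members were below vehicle. The median change was -0.15 with GS-5759 and -0.29 with Ind/GSK, against 0 and -0.04 for all genes. Of 40 members, 17 were lower in every replicate number with GS-5759 and 21 with Ind/GSK, against 17.9% and 27.4% of all genes, and 4 and 1 were higher, against 17.4% and 9.74%. With the block 11 members fell with Ind/GSK (13.1% of all genes fell) and ISG20 alone rose (4.68% rose). With GS-5759 0 members fell (4.58% of all genes), but GBP1 and HERC6 fell there after centring on the 75th percentile or quantile normalization, and GBP1 when probe sets were averaged. The vehicle arrays at 6 h enter both comparisons.

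The members that fell with Ind/GSK at 6 h were IFI44, IFI44L, XAF1, IFIT1, GBP1, SAMD9L, DDX60, IFI35, TRIM22, HERC6 and UBE2L6, by a log2 of 0.77, 0.74, 0.67, 0.54, 0.52, 0.51, 0.46, 0.35, 0.29, 0.27 and 0.19. DDX60, a helicase linked to sensing of viral RNA, had 582, 866, 483 and 529 with Ind/GSK in numbers 1 to 4, against 797, 1030, 692 and 829 with vehicle. Its change was -0.46 ± 0.11 (limma with the block, adjusted p = 0.00385), and the groups overlapped only through number 2 with Ind/GSK. IFI44 had 439, 782, 493 and 223 with Ind/GSK, against 862, 990, 741 and 539 with vehicle, a change of -0.77 ± 0.21 (limma with the block, adjusted p = 0.00717). Each Ind/GSK array was below the vehicle array of its number in both genes. A second IFI44 probe set gave -0.16 and was not called. For SAMD9L a second probe set gave -0.20 and was not called, and for HERC6 one below the filter gave 0.08. When probe sets were averaged, the calls of SAMD9L, XAF1 and HERC6 were lost.

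GBP1 had 416, 812, 702 and 583 with Ind/GSK at 6 h, against 965, 871, 844 and 854 with vehicle. All 4 Ind/GSK arrays lay below all 4 vehicle arrays, and the change was -0.52 ± 0.14 (limma with the block, adjusted p = 0.00917, 0.0997 without). With GS-5759 the 4 arrays were 709, 708, 642 and 616, also below all vehicle arrays, with a change of -0.39 that was not called (limma with the block, adjusted p = 0.0721). Another pair of GBP1 probe sets gave -0.46 and -0.52 with Ind/GSK, both called, and -0.30 and -0.34 with GS-5759, of which the second was called (limma with the block, adjusted p = 0.0441). XAF1, which promotes apoptosis, had 182, 176, 202 and 66 with Ind/GSK, against 247, 230, 293 and 200 with vehicle, so that number 4 was far lower than the others. Its change was -0.67 ± 0.20 (limma with the block, adjusted p = 0.0178), while a second XAF1 probe set gave -0.09.

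These calls rested on particular replicate numbers. Without number 3, 4 members were called with Ind/GSK at 6 h (IFI44, ISG20, DDX60 and GBP1). Without number 1 there were 4 (ISG20, DDX60, XAF1 and UBE2L6), without number 4 there were 2 (ISG20 and SAMD9L), and without number 2 there were 16. With replicate number as a random block there were 7. Of all genes 1543, 1570 and 1721 were called without number 1, 3 and 4, and 2076 with the random block. With all numbers 2567 were called. DDX60 was called in 3 of the 4 fits without 1 number, and HERC6 in 0. In number 2, IFIT1, which binds viral RNA, had 3170 with Ind/GSK and 2840 with vehicle, while in numbers 1, 3 and 4 it had 1600, 998 and 943 with Ind/GSK against 3130, 1440 and 1710 with vehicle.

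At 18 h IFIT2 and RSAD2 had the most negative changes of the 40 members with both treatments. IFIT2, which like IFIT1 restricts viral translation, had 412, 492, 239 and 211 with GS-5759, 254, 650, 235 and 240 with Ind/GSK, and 589, 1110, 468 and 709 with vehicle in numbers 1 to 4. RSAD2 (viperin), which makes a chain-terminating nucleotide, had 226, 173, 81.8 and 107 with GS-5759, 157, 212, 75.6 and 77.9 with Ind/GSK, and 307, 496, 172 and 180 with vehicle. Every treated array was below the vehicle array of its number in both genes, and the groups overlapped between numbers. IFIT1 had 1310, 1220, 752 and 798 with GS-5759 at 18 h, 1170, 1550, 693 and 775 with Ind/GSK, and 1760, 2570, 1260 and 1330 with vehicle.

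With Ind/GSK at 18 h, 5 members fell with the block, against 1.37% of all genes. IFIT2 fell by 1.09 ± 0.27 (limma adjusted p = 0.0289), RSAD2 by 1.04 ± 0.27 (0.0361), IFIT3 by 0.74 (0.0313), IFIT1 by 0.73 (0.0388) and IFIT5 by 0.36 (0.0224). The matching changes with GS-5759 were -1.06, -0.87, -0.73, -0.73 and -0.24, and 0 members were called there, where 0.146% of all genes were. The second probe sets of IFIT2 and RSAD2 gave -0.88 and -1.03 with Ind/GSK and were called, while those of IFIT3 and IFIT5 gave -0.69 and -0.17 and were not. In fits that left out number 1, 3 or 4, 0 members were called with Ind/GSK at 18 h. Of all genes 22, 19 and 239 were called there, against 271 with all numbers. Without number 2 there were 4 members. With replicate number as a random block there were 0, beside 99 of all genes. Over the whole list the median change was -0.22 with GS-5759 and -0.24 with Ind/GSK, against 0.01 and -0.02 for all genes. Of 40 members, 14 and 21 were lower than vehicle in every number with GS-5759 and Ind/GSK, against 10% and 9.76% of all genes, and 0 and 1 were higher, against 12.6% and 10.5%.

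GS-5759 and Ind/GSK were compared directly at the 4 times and over their mean, 5 comparisons in all. At each time limma called 0 of 40 members and 0% of all genes, with or without the block. At an unadjusted p under 0.05 without the block there were 0 members, and 855, 273, 468 and 54 of all genes at 1, 2, 6 and 18 h. With the block there were 0, 1 (IRF1), 1 (TRIM22) and 0 members, beside 18.8%, 5.77%, 10.3% and 1.83% of all genes. At 6 h the mean with GS-5759 was higher than or equal to that with Ind/GSK in 40 of 40 members. The median difference was 0.15, against 0.05 for all genes. However, 2 of the 40 were higher with GS-5759 in every replicate number and 0 were lower. The matching shares of all genes are not given here. For ISG20 the difference at 6 h was 0.00 with a 95% interval of -0.25 to 0.26 in the fit with the block. For IFI44 it was 0.26 (-0.15 to 0.68). For IRF1 at 2 h it was 0.17 (0.02 to 0.32), with an adjusted p of 0.833 by limma with the block. These intervals are not adjusted for the number of genes or comparisons.

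Over the mean of the 4 times, IRF1 and TRIM22 were higher with GS-5759 than with Ind/GSK in the fit with the block, beside 14.3% of all genes called (0.0902% and 0 members without the block). IRF1 differed by 0.12 ± 0.04 (limma adjusted p = 0.0365) and TRIM22, an antiviral ubiquitin ligase, by 0.15 ± 0.05 (0.0439). GS-5759 was higher in 12 of 40 members in every replicate number, against 34.8% of all genes, and lower in 0, against 3.78%. The median difference was 0.05 in members and 0.06 in all genes. Leaving out number 1, 2 or 3 left 0 members called, beside 0, 387 and 25 of all genes, against 2060 with all numbers. Centring each array on its 75th percentile also left 0 members, beside 274 of all genes.

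Under vehicle alone most members were higher at 6 h than at 2 h. The median change was 0.37, against 0 for all genes, and 35 of 40 members were higher at 6 h in every replicate number, against 14.4% of all genes. Limma called 0 members without the block (0.305% of all genes), and 5 had an unadjusted p under 0.05, beside 8.56% of all genes. With the block it called 11 risen, against 3.56% of all genes. They were MX2, MX1, CMPK2, USP18, PARP9, SAMD9, PARP14, HERC6, IFI35, EPSTI1 and TRIM22, with changes of 1.12, 0.96, 0.61, 0.49, 0.46, 0.45, 0.43, 0.41, 0.39, 0.38 and 0.33. USP18, which removes ISG15 and damps the interferon receptor, and the ADP-ribosyltransferase family members PARP9 and PARP14 are among them. A second PARP9 probe set was called at 0.50, whereas other probe sets of PARP14, EPSTI1 and SAMD9 gave -0.03, 0.26 and 0.41 and were not called.

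MX1, a GTPase that blocks influenza viruses, had 2310, 2850, 1330 and 1360 with vehicle at 6 h in numbers 1 to 4, against 1640, 1200, 503 and 794 at 2 h. Each number was higher at 6 h, and the groups overlapped. The change was 0.96 ± 0.26 (limma with the block, adjusted p = 0.0238, 0.658 without). MX2 had 634, 1490, 225 and 621 at 6 h, against 463, 502, 50.6 and 387 at 2 h, a change of 1.12 ± 0.31 (0.0276 with the block). With GS-5759 the mean MX1 signal was 1170, 1340, 1540 and 946 at 1, 2, 6 and 18 h, with Ind/GSK 1380, 1210, 1430 and 1010, and with vehicle 998, 1030, 1960 and 1440. The SDs of those means ran from 250 to 947 (n = 4).

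The calls under vehicle also depended on the replicate numbers fitted. Leaving out number 1, 2, 3 or 4 left 1, 0, 5 and 5 members called. Of all genes 142, 345, 655 and 317 were called in those fits, against 729 with all numbers. HERC6 was called in 3 of those fits. With replicate number as a random block 2 members were called, PARP14 and EPSTI1, beside 464 of all genes. The vehicle arrays at 6 h also enter the treated comparisons at that time. For MX1 the changes from vehicle at 6 h were -0.43 with GS-5759 and -0.63 with Ind/GSK, and neither was called. Between 2 h and 6 h the mean response to both treatments shifted by a median of -0.32 in members, against 0.01 in all genes. Without the block 0 members were called for the 3 shifts between neighbouring times (0.132%, 0.569% and 0.361% of all genes). With it HERC6 was the only member called between 2 h and 6 h (-0.41 ± 0.11, limma with the block, adjusted p = 0.0292, beside 4.89% of all genes), and that call was lost without number 2, 3 or 4.

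**Figure D5:**
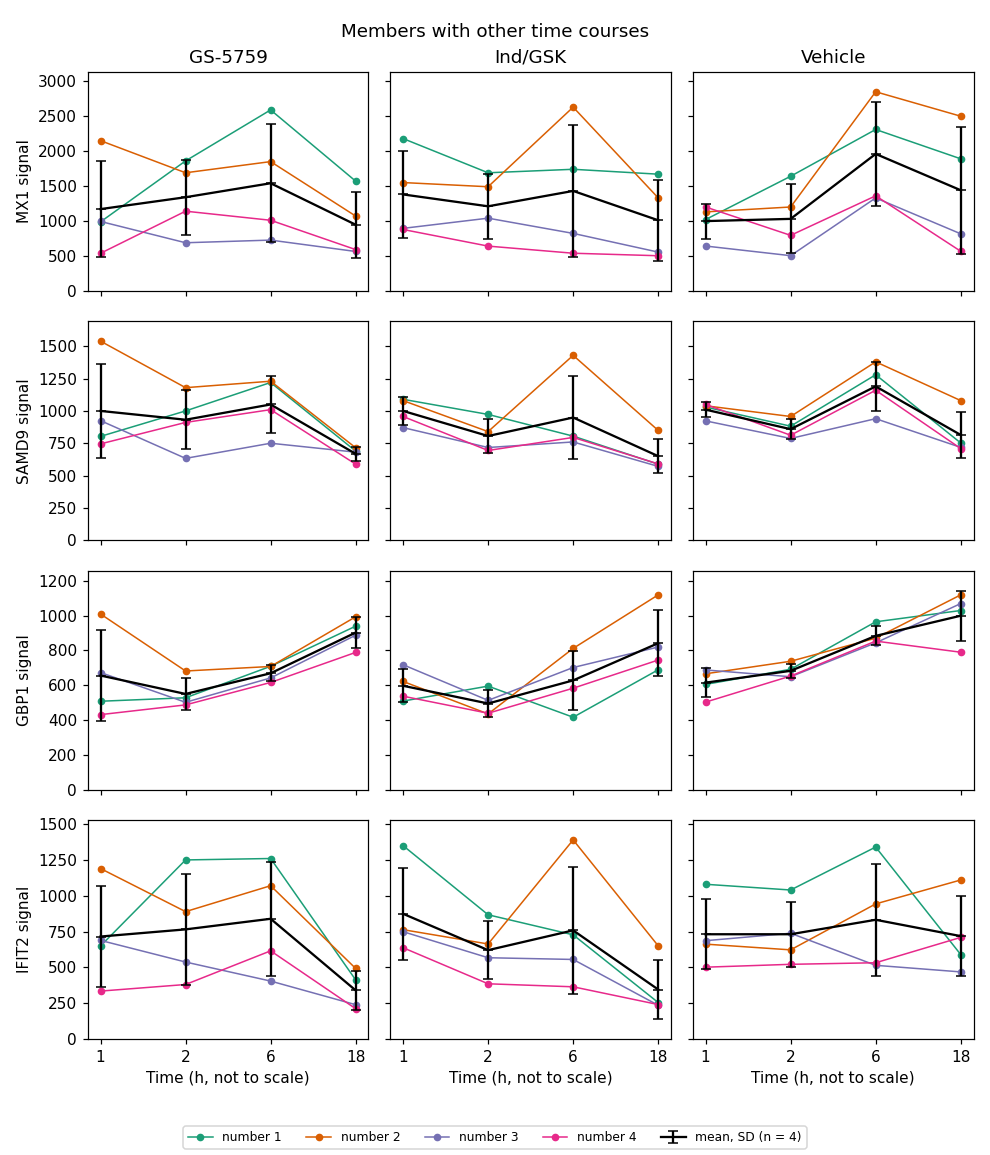
Signals of MX1, SAMD9, GBP1 and IFIT2 (rows) at 1, 2, 6 and 18 h with GS-5759, Ind/GSK and vehicle (columns). Coloured lines join arrays of 1 replicate number, and black marks are the mean and SD of 4 arrays. With vehicle MX1 and SAMD9 are highest at 6 h (means 1960 and 1190), and IFIT2 at 18 h is lower in treated cells (means 339 and 345) than with vehicle (718).

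From 6 h to 18 h under vehicle 34 of the 40 members had negative changes, with a median of -0.16 against 0.01 for all genes. SAMD9 had 752, 1080, 718 and 709 at 18 h, against 1280, 1380, 940 and 1160 at 6 h, so that each number was lower and the groups overlapped through number 2 at 18 h. It fell by 0.55 ± 0.13 (limma with the block, adjusted p = 0.00137, 0.0618 without), a call kept in each of the 4 fits without 1 number and the 5 other settings with the block, and its other probe set gave -0.53. SAMD9L, its neighbour, fell by 0.38, IFIT5 by 0.32 and HERC6 by 0.31. DDX60 rose by 0.35 and PSMB9, a subunit of the immunoproteasome, by 0.17. These 6 members were called beside 29.1% of all genes with the block, and 0 were called without it, beside 11.5%. Fits with the block that left out 1 number called 3 to 5. From 1 h to 2 h under vehicle 0 members were called in either fit, beside 15.7% of all genes with the block and 2.57% without. The mean response to both treatments differed between 1 h and 2 h in 0 members (2.38% of all genes with the block).

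CMPK2, a nucleotide kinase next to RSAD2 in the genome, had 436, 399, 212 and 270 with GS-5759 at 18 h, 357, 509, 224 and 271 with Ind/GSK, and 551, 921, 303 and 354 with vehicle. At 6 h it had 780, 734, 414 and 652 with GS-5759, 573, 910, 527 and 536 with Ind/GSK, and 633, 716, 358 and 519 with vehicle. At 18 h every treated array was below the vehicle array of its number. The mean response was lower at 18 h than at 6 h by a log2 of -0.78 ± 0.22 (limma with the block, adjusted p = 0.028, beside 5.77% of all genes), and this call too was lost in each of the 4 fits without 1 number.

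Upstream of these genes, 8 of 9 listed interferons were measured. IFNB1, with a mean signal of 13.9, and all type I and III interferons measured were below the filter at 75.4, and IFNG was above it with 196. All 6 receptor chains were above the filter, and 0 were called in the comparisons with vehicle without the block. With the block the interferon gamma receptor chain IFNGR1 rose by 0.25 with GS-5759 at 2 h and by 0.23 with Ind/GSK at 6 h, and without number 3 neither was called. All 12 sensors and adaptors were above the filter too, and 0 were called without the block. With the block 0 were called with GS-5759, and with Ind/GSK the transcription factor IRF3 fell at 1 h and 6 h (-0.24 and -0.23), the kinase TBK1 at 2 h (-0.17) and the RNA sensor RIGI at 18 h (-0.55). Without number 3 both IRF3 calls were kept and those of TBK1 and RIGI were lost. With the block 18.1%, 11.9%, 17.8% and 1.88% of all genes were called with Ind/GSK at 1, 2, 6 and 18 h. With GS-5759 the shares were 1.35%, 9.33%, 10.6% and 0.146%. These shares stand beside all calls with the block in this paragraph. Among 4 kinases and STATs measured, STAT3 rose with GS-5759 at 6 h (0.35 ± 0.10, limma without the block, adjusted p = 0.0465) and was the only one called there without the block, a call lost without number 3 (0.313, and 0.0714 with the block). With the block JAK2 and TYK2 fell with Ind/GSK at 1 h (-0.25 and -0.15), and STAT3 rose with it at 6 h (0.24). JAK1 rose with GS-5759 at 2 h and 6 h (0.20 and 0.19). Without number 3 the calls of JAK2, TYK2 and JAK1 at 2 h were kept. Those of STAT3 with Ind/GSK and of JAK1 at 6 h were lost. Among 9 inhibitors, SOCS3, which blocks JAK kinases, rose with GS-5759 at 2 h (0.40 ± 0.11, limma without the block, adjusted p = 0.0433), and its change with Ind/GSK was 0.37 (0.0526). Without number 3 the SOCS3 call with GS-5759 was lost in that fit (0.131) and kept with the block (0.0156). IRF2BP2, a corepressor of IRF2, rose in the fit with the block by 0.81 with GS-5759 and 0.69 with Ind/GSK at 2 h, both kept without number 3. SOCS3 and IRF2BP2 were also called as risen at other times with the block. Other inhibitors fell in that fit. IRF2 fell with Ind/GSK at 1 h and 2 h (-0.23 and -0.16) but rose with GS-5759 at 6 h (0.27). PIAS1 and TRIM24 fell with Ind/GSK at 6 h (-0.27 and -0.30). Of these calls of IRF2, PIAS1 and TRIM24, only that of IRF2 at 2 h was lost without number 3.

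Among 29 tested interferon-responsive genes outside the member list, SP140L fell with Ind/GSK at 6 h (-0.46 ± 0.10, limma without the block, adjusted p = 0.00493) and was the only one called in the 8 comparisons with vehicle without the block. Without number 3 its adjusted p was 0.0507 in that fit and 0.000169 with the block. With the block, 1 fell and 2 rose with GS-5759 at 6 h, where 10.6% of all genes were called and 4.58% fell. With Ind/GSK 6 fell and 2 rose, beside 13.1% and 4.68% of all genes. Without number 3 these counts were 1 and 2 with GS-5759 and 4 and 2 with Ind/GSK. Both genes that rose, in each treatment, were the inflammatory caspases CASP1 and CASP4, with CASP4 up by 0.50 with GS-5759 and 0.44 with Ind/GSK. Under vehicle 11 of the 29 rose between 2 h and 6 h with the block and 0 fell, with a median change of 0.20. Of all genes 3.56% rose in that comparison. TRIM14, an adaptor of antiviral signalling, and the immunoproteasome subunit PSMB10 were among these 11, with changes of 0.42 and 0.40. Without number 3, 10 of the 29 rose, and both of these were called.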

How the data were processed

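Gene expression was measured on 48 arrays in 12 groups of 4. The authors deposited 1 linear intensity per probe set and array. Per the submitters' processing notes, PLIER was run in Affymetrix Expression Console. Versions and the normalization between arrays were not given in the sources used here. Per the labels' protocols, RNA was isolated with RNeasy and labelled as biotinylated cRNA. The array number limits the precision.

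Of 54675 probe sets, 41091 had 1 gene symbol in the platform annotation, 1801 several and 11721 none, and 62 were controls. Symbols of 41037 were matched to RefSeq (GRCh38.p14). The brightest probe set with 1 symbol stood for each of 19775 genes. Values were analysed as log2(value + 16), and 14409 genes above the 40th percentile of all probe set means (log2 6.514) were tested. A mean per group was fitted on all 48 arrays with limma 3.58.1 (lmFit and eBayes, 36 residual degrees of freedom, prior 2.37, 33 residual with the replicate block) in R 4.3.3 with data.table (version 1.17.8) and jsonlite 2.0.0. P-values were adjusted by Benjamini-Hochberg over all tested genes. The fit was also run on simulated data in which genes varied independently within arrays. That run therefore does not cover shifts that many members share in an array. Figures were drawn with Python 3.11.15 and matplotlib 3.10.9.

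Replicate numbers come from the sample titles. After group means were removed, all 60 pairs of same-numbered arrays in compared groups correlated above 0.1 over genes (0.2 to 0.93; differently numbered arrays -0.85 to 0.75), so the numbers were taken to pair the samples. No arrays were identical.

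The members and lists were chosen with earlier results of these data known, so none is independent evidence of its direction. Arrays were to be given in full for up to 10 called members per set of comparisons with vehicle and up to 3 called in others, for ISG15, MX1, IFIT1, OAS1, IRF1, STAT2 and IRF9, and for the 3 members with the largest and the 3 with the smallest share held by replicate number. As the fit without the block called none, other members shown were chosen from the fit with it. Lists covered interferons, receptors, kinases and STATs, sensors and adaptors, inhibitors, other interferon-responsive genes, and markers of airway epithelium, fibroblasts, leukocytes, plasmacytoid dendritic cells and endothelium. Alternatives covered array scaling, pseudocount, filter, probe set choice, eBayes trend, the replicate block and leaving out arrays or replicate numbers.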

Additional observations from a re-analysis of the deposited data

Results flagged for a closer look

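Among 156 groups of 4 arrays searched, in which chance alone marks about 1 in 20, a single array lay far from the other 3 in 12. All values are log2(signal + 16). OAS1 had 10 with GS-5759 at 1 h in number 2, against 8.12 to 8.40 in the others, and 8.06 with vehicle at 2 h in number 3, against 8.88 to 9.01. IRF1 had 10.19 with GS-5759 at 1 h in number 4 (others 10.47 to 10.51) and 10.35 with vehicle at 6 h in number 1 (others 9.90 to 9.98). IRF9 had 10.23 with vehicle at 2 h in number 3 (others 10.86 to 10.98). UBE2L6 was low in number 3 in 3 groups, with 11.36 with GS-5759 at 6 h, 11.30 with Ind/GSK at 1 h and 11.33 with vehicle at 1 h. SAMD9 was high in number 2 with Ind/GSK at 6 h (10.50, others 9.60 to 9.68), with Ind/GSK at 18 h (9.76, others 9.20 to 9.24) and with vehicle at 18 h (10.09, others 9.50 to 9.59). It was low in number 3 with vehicle at 1 h (9.87, others 10.03 to 10.06).

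In 5 cases a difference between effects passed limma's adjusted p with the replicate block. GS-5759 exceeded Ind/GSK over the mean of 4 times by 0.12 for IRF1 and by 0.15 for TRIM22. The mean response to both treatments changed by -0.41 for HERC6 between 2 h and 6 h, and by -0.49 for ISG20 and -0.78 for CMPK2 between 6 h and 18 h. Adjusted p ran from 0.028 to 0.0488, and 0 of the 5 passed in the fit without the block.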

How the results depend on the processing

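Without the replicate block, 0 members were called in each of the 19 comparisons, and other scalings, pseudocounts, filters and eBayes with trend kept that count except as follows. Averaging all probe sets gave 1 (GBP1) with Ind/GSK at 6 h, where fits without 1 array or 1 replicate number ran from 0 to 1. Vehicle at 18 h against 6 h gave 1 (SAMD9) after centring on the 75th percentile and after quantile normalization, and 0 to 1 in fits that left out arrays. With the replicate block the counts were 3, 12 and 5 with Ind/GSK at 2, 6 and 18 h, 2 and 1 with GS-5759 at 2 and 6 h, 2 for GS-5759 against Ind/GSK over the 4 times, 1 and 2 for the mean response at 6 h against 2 h and 18 h against 6 h, and 11 and 6 for vehicle at 6 h against 2 h and 18 h against 6 h. It changed no other count.

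Settings added to the block were chosen after seeing the data. Fits without 1 replicate number ran from 0 to 1 with Ind/GSK at 1 h, 1 to 2 at 2 h, 2 to 16 at 6 h and 0 to 4 at 18 h. They ran from 0 to 1 for GS-5759 against Ind/GSK over the 4 times and for the mean response at 6 h against 2 h, and from 0 to 0 for it at 18 h against 6 h. For vehicle they ran from 0 to 5 at 6 h against 2 h and from 3 to 5 at 18 h against 6 h. Replicate number as a random block (correlation 0.44) gave 7 and 0 with Ind/GSK at 6 and 18 h, 0 for the treatments against each other over the 4 times and for both shifts in mean response, and 2 and 3 for the vehicle comparisons. Centring on the 75th percentile or quantile normalization gave 3 with GS-5759 at 6 h (ISG20 risen, GBP1 and HERC6 fallen), 0 for the treatments against each other over the 4 times and 2 for the mean response at 6 h against 2 h. Averaging all probe sets gave 2 with GS-5759 at 6 h (ISG20 risen, GBP1 fallen), 0 for the mean response at 6 h against 2 h and 1 at 18 h against 6 h. A pseudocount of 1 gave 1 for the mean response at 2 h against 1 h. The cause of these differences was not tested. Calls over all genes also changed in fits without 1 replicate number. For the mean response at 18 h against 6 h they went from 832 to 265, 394, 428 and 285 without number 1, 2, 3 and 4. Among the single members refitted, each change that an alternative setting called kept the direction of the main fit. The direction of changes not called was not checked. Probe sets of 1 gene could differ, as PARP14 with GS-5759 at 2 h had 0.25 and its other probe set -0.52 (limma with the block, adjusted p = 0.00586). ISG20 with both treatments at 2 and 6 h, IRF1 with GS-5759 at 2 h and SAMD9 under vehicle at 18 h against 6 h were called in all 9 fits with the block varied. Dim members such as XAF1 (mean signal 161, filter 75.4) have the least signal over background.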
